A study of Drosophila melanogaster with 3 samples.

Results

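The genes described here are 10 members of the BTB family of transcription factors of Drosophila melanogaster (chinmo, br, ttk, lola, psq, bab1, bab2, fru, ab and mamo), taken by name from the 13945 protein-coding genes on the 6 chromosome arms. Their sites are the binding summits of the zinc-finger protein Nerfin-1 whose nearest transcription start site (TSS) of a protein-coding gene belongs to one of them. By that rule they held 39 of the 7056 summits of the list that passed the authors' irreproducible discovery rate (IDR) threshold, and 230 of the 30000 summits of the list called on the pooled replicates. ChIP-seq (sequencing of immunoprecipitated chromatin) gave the sites, in whole embryos of both sexes, 4 to 16 h old, of a transgenic line that makes Nerfin-1 with GFP at its C terminus. Chromatin was sonicated to 200 to 800 bp and precipitated with an antibody to GFP. There is 1 group with 3 biological replicates and no second condition, so values are compared between replicates and with the summits of all other genes. The protein is tagged and comes from a transgene, and a whole embryo mixes neural with all other cells, so a summit does not show in which cells the site was bound.

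BTB domains let these proteins pair with themselves and with each other and recruit other regulators of transcription. Most family members bind DNA through zinc fingers, whereas Pipsqueak and both Bric-a-brac proteins use a helix-turn-helix domain named after Pipsqueak. Several of them act in the developing nervous system: Chinmo and Broad mark early and later periods of neuroblast lineages, Lola guides axons and in the optic lobe holds neurons in their differentiated state, and Tramtrack represses neuronal genes outside neurons. Nerfin-1 itself is made in newly born neurons and keeps them from turning back into dividing cells.

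The sequences under 5 of the sites are shown. They differ in base composition, with which the order of the sites in replicate 2 varied. Each is the dm6 plus strand from 100 bp before to 100 bp after the best-ranked IDR summit of the gene whose window touches no exon (RefSeq release 6), for 5 of the best-ranked genes. The capitals mark matches, on either strand and anywhere in the window, to 7 short words whose counts, made within 50 bp of a summit, are given with the factors they belong to. The capitals in the chinmo sequence are GAGAG, those in the br sequence lie beyond 50 bp, and of those in the ab sequence only TTCCCA, the reverse complement of TGGGAA, lies within it. They are chr2L:1643348-1643548 at chinmo (28.9% G+C over 201 bp), chrX:1593623-1593823 at br (49.3%), chr3L:1166337-1166537 at bab2 (39.8%), chr3L:1097062-1097262 at bab1 (36.3%) and chr2L:11247800-11248000 at ab (42.8%).
chinmo: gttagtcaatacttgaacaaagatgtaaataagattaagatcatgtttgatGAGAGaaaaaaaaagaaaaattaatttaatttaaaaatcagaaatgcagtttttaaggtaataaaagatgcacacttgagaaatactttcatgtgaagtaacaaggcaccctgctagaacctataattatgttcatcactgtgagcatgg
br: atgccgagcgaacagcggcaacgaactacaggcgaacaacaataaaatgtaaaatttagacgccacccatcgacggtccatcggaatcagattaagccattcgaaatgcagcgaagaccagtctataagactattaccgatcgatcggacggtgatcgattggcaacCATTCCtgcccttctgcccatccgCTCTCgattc
bab2: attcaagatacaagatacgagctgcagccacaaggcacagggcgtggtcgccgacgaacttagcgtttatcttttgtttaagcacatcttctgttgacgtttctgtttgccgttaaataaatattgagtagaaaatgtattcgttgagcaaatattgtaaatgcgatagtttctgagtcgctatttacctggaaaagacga
bab1: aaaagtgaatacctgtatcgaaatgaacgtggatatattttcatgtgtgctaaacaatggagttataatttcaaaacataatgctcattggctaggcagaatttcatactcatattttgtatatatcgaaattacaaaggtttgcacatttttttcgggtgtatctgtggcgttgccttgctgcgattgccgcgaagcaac
ab: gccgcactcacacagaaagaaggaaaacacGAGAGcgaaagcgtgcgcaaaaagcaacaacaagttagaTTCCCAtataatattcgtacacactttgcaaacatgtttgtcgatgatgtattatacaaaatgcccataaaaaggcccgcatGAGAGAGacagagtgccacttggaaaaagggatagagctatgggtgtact

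Of the 10 genes, 8 held at least 1 IDR summit, and fru and mamo held none. Among all protein-coding genes the share was 28.6%. At least 1 pooled summit was held by all 10, and by 51.8% of all protein-coding genes. These genes have long surroundings, however: the territory of a gene, the sequence nearer to its TSSs than to those of any other protein-coding gene, had a median of 51875 bp here and of 4239 bp over all genes. Among the 1471 genes with a territory of at least 20579 bp, the shortest of the 10, the share was 50.2%. All 8 held 2 or more IDR summits, so 8 of the 10 genes did, against 9.72% of all genes and 32.8% of those with long territories. Of the 3986 genes with at least 1 IDR summit, 1356 held 2 or more, and with long territories 483 of 739 did. Per length of territory the 10 genes together had 0.617 IDR summits per 10 kb, against 0.527 over all genes, and 3.64 pooled summits per 10 kb, against 2.24. The part of the pooled summits that was strong enough for the IDR list was 17.0% at the 10 genes and 23.6% at all others. No chance test was made of these counts.

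Chinmo had the best rank, chinmo and psq had the most summits, and fru and mamo had the fewest. The number of summits among the 7056 strongest of a replicate, the length of the IDR list, averaged 10.7 ± 1.53 at chinmo, 9.67 ± 1.15 at psq, 6 ± 2 at lola, 3.33 ± 0.577 at both bab1 and ab, 3 ± 2 at br, 2.67 ± 1.53 at ttk, 2 ± 1 at bab2, 0.667 ± 1.15 at fru and 0.333 ± 0.577 at mamo (SD, n = 3). In all, the genes held 44, 38 and 43 of these summits in replicates 1, 2 and 3, a mean of 41.7 ± 3.21 (SD). The number of genes with such a summit was 8 in replicate 1, 10 in replicate 2 and 8 in replicate 3, where 27.2%, 30.3% and 26.9% of all protein-coding genes had one. The geometric mean of the best rank was 315 for chinmo, and the next, 940 for psq, lay 0.48 further on the log10 scale, more than the SD of either gene over replicates (0.27 and 0.15). From psq to lola (1730), br (1821), bab1 (1831), bab2 (2252), ab (2361) and ttk (3077), no gene differed from its neighbour in this order by more than the larger SD of the pair, and in replicate 2 the best lola summit (601) ranked ahead of the best psq summit (664). At least 9 IDR summits, as chinmo and psq had, were held by 46 genes, 0.33% of all. The share among genes with long territories alone is not given.

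**Figure D1:**
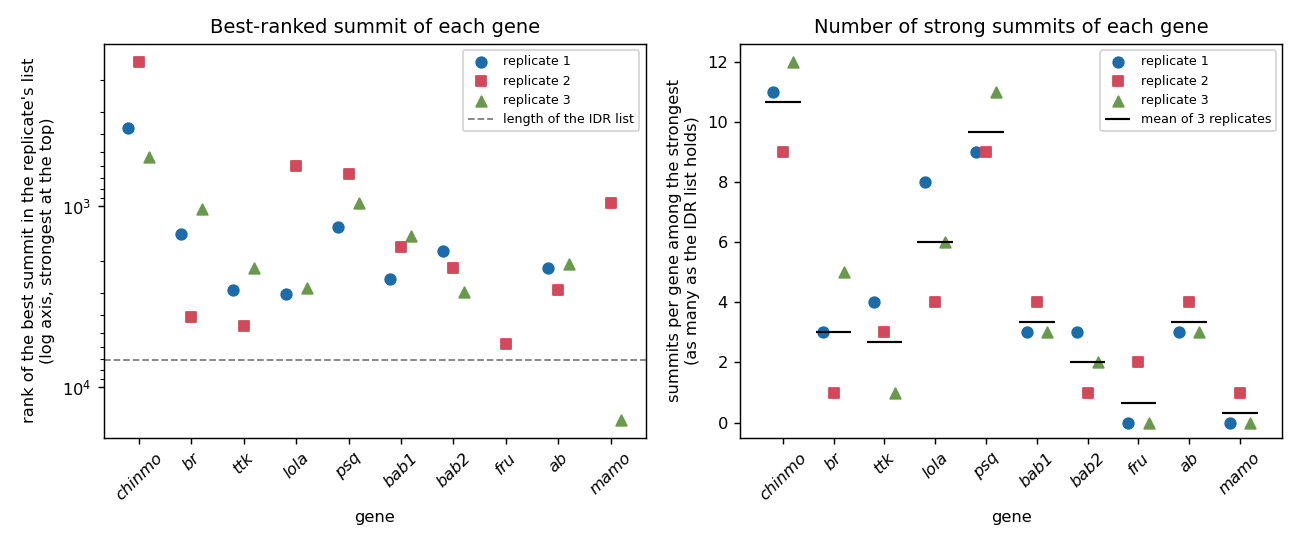
Left, the rank of the best summit of each gene in each replicate's list of 30000 (log axis, strongest at the top), with the length of the IDR list, 7056, as a dashed line; a gene without a summit in a list has no point. Right, the number of summits of each gene among the 7056 strongest of a replicate, with the mean of the 3 replicates as a bar; chinmo (9 to 12) and psq (9 to 11) lie above the other 8 genes, and fru and mamo have points above 0 in replicate 2 alone.

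The gene chinmo (FBgn0086758, arm 2L, 1651258 to 1704682, plus strand) held 10 IDR summits, and 8 of them lay upstream of its first TSS at 1651258. This gene encodes a zinc-finger protein whose level falls with age in neuroblast lineages and sets the fates of early-born neurons. All 10 went to that TSS, from which 4 transcripts start, and none to the TSS at 1667847 with 2 transcripts, whose best pooled summit ranked 7747. The best summit of all 10 genes, at 1643448 (peak 1643212 to 1643605), ranked 258 in the IDR list and lay 7810 bp upstream in intergenic sequence. Its ranks in replicates 1, 2 and 3 were 368, 183 and 533. Next came the summits at 1649426, 1832 bp upstream (rank 410), 1638786, 12472 bp upstream (rank 413), and 1648788, 2470 bp upstream (rank 861).

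At all 4 of these chinmo sites replicate 2 gave the best of the 3 ranks. The summit at 1649426 ranked 782, 226 and 1040 in replicates 1, 2 and 3, that at 1638786 ranked 1352, 159 and 1763, and that at 1648788 ranked 1422, 672 and 1116. The 200 bp around the first 3 sites held 28.5%, 23.0% and 24.0% G+C, below the mean of 39.7% over the IDR summits of other genes. The fourth held 38.5%, close to that mean. The promoter summit of chinmo at 1651162, 96 bp upstream of the TSS, went the other way. It had 48.0% G+C, and its ranks in replicates 1, 2 and 3 were 1382, 2972 and 777. The other 5 IDR summits of the gene had ranks from 2426 to 6402. Among them, that at 1649685 (rank 2426) was strong in replicate 2 alone, with ranks of 8422, 1301 and 8910. That at 1632858 lay farthest from the TSS, 18400 bp upstream. Both ranked best in replicate 2, with 39.5% and 40% G+C, also close to the mean of other genes. Of the 9 chinmo summits matched in all 3 replicates, 6 ranked best in replicate 2 and 3 ranked worst there. Of all 10 chinmo summits, 6 were among the strongest 7056 summits of all 3 replicates. Several of the upstream sites also lie near genes of long non-coding RNAs: when those were allowed to take summits, chinmo kept 5 of its 10, and lncRNA:CR45695 took the best site, with the summit 3715 bp from its TSS.

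The neighbours psq and lola lie head to head on arm 2R, and their sites ran on through the gap between them. Psq (FBgn0263102, 10557888 to 10617280, plus strand) encodes a protein that binds GAGA sequences and works with Polycomb group proteins, and lola (FBgn0283521, 10481894 to 10543291, minus strand) encodes many zinc-finger isoforms with 1 shared BTB domain. The gap of 14596 bp held 17 pooled summits, 5 of them in the IDR list, of which 3 went to psq and 2 to lola. It holds the gene of a long non-coding RNA, lncRNA:acal, and the lola summit at 10545388 fell in an exon of that RNA.

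Psq had 9 IDR summits spread over all 4 of its start regions (TSSs within 500 bp of each other were merged), with 4, 3, 1 and 1 in order from the 5′ end. The best, at 10582323 (peak 10582285 to 10582490) in an intron, ranked 1078, and lay 1363 bp upstream of the fourth region. It ranked 2165, 664 and 2504 in replicates 1, 2 and 3. The next 2, at 10567234 (rank 1666, intron) and 10575200 (rank 1999, intron), were weaker in replicate 2, with ranks of 1309, 2482 and 1511 for the first and 1303, 7013 and 960 for the second. Of the 9 summits, 5 were among the strongest of all 3 replicates and 1 lay within 500 bp of a TSS.

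Lola had 6 IDR summits, and its best one was matched within 100 bp in replicate 2 alone. This summit, at 10542056 (peak 10541838 to 10542086), lay 386 bp upstream of the second start region, from which 8 transcripts start, and ranked 1478 in the IDR list. Replicate 2 had it at rank 601, whereas replicates 1 and 3 had no summit within 100 bp. Their nearest summits, both inside the bounds of that IDR peak, lay 125 bp and 147 bp away, at ranks 5141 and 17147. The site had 32.0% G+C. A single lola summit was among the strongest of all 3 replicates, at 10534205, 149 bp downstream of the fourth start region, with ranks of 3039, 6452 and 3360 in replicates 1, 2 and 3. The third start region, which has the most transcripts of the 4 regions (11), took no IDR summit, and its best pooled summit ranked 7636. It did take summits among the strongest of each replicate, the best at ranks 3696, 6802 and 5220 in replicates 1, 2 and 3. Lola thus kept 1 or 2 of its 6 summits when sites had to be found in a given pair of replicates.

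The gene br (FBgn0283451, arm X, 1575132 to 1664869, plus strand) had 3 IDR summits, all nearest to the second of its 6 start regions. It encodes the Broad zinc-finger proteins of the ecdysone response, which direct metamorphosis. The best summit, at 1608876 (peak 1608690 to 1609055), lay 7 bp from the TSS at 1608869, from which 1 transcript starts, and ranked 1887 in the IDR list. Its ranks in replicates 1, 2 and 3 were 1427, 4103 and 1031. The other 2, at 1593723 (rank 5010) and 1599225 (rank 5533), lay in an intron 15146 bp and 9644 bp upstream. They ranked 2938, 11735 and 5198, and 4409, 8766 and 3955, in replicates 1, 2 and 3, so all 3 sites were weakest in replicate 2. The fourth start region of br, which has 9 of its 16 transcripts, took no summit in any of the 5 lists. All 3 summits lie within the longer annotated span of the gene Mur2B too, so by gene body with the longest span br held none.

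The gene ttk (FBgn0003870, arm 3R, 31713867 to 31735392, plus strand), which encodes the Tramtrack repressors, had 2 IDR summits. The first, at 31725536 (peak 31725456 to 31725664), lay 244 bp upstream of the TSS at 31725780 and ranked 3440, with ranks of 2904, 5246 and 2195 in replicates 1, 2 and 3. The second, at 31717414 (peak 31717196 to 31717631) in an intron 3547 bp downstream of the first TSS, ranked 6238 and was matched in replicate 2 (rank 4572) but in neither other replicate within 100 bp. Replicates 1 and 3 had summits 125 bp and 132 bp from it, at ranks 6275 and 17099. The best-supported ttk site was thus at an internal start, and the second rests on replicate 2 at this matching distance.

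The paralogues bab1 (FBgn0004870, arm 3L, 1036369 to 1101089) and bab2 (FBgn0025525, arm 3L, 1140429 to 1177276), both on the minus strand, pattern legs, ovary and abdominal pigment, and had 3 and 2 IDR summits. The best bab2 summit, at 1166437 (peak 1166313 to 1166587) in an intron 10839 bp into the gene, had ranks that were close in the replicates: 1759, 2192 and 2964 in replicates 1, 2 and 3, and 2008 in the IDR list. The best bab1 summit, at 1097162 (peak 1097020 to 1097247), lay 3927 bp into the gene and ranked 2250 in the IDR list and 3416, 1679 and 4842 in the replicates. The bab1 summit at 1101609 (peak 1101517 to 1101717; rank 2899), 520 bp upstream of the TSS, had the highest G+C content of the 39 sites, 60.0%, and ranked 2520, 6008 and 1452. The third bab1 summit, at 1086416 (peak 1086318 to 1086491; rank 3603), lay 14673 bp into the gene and ranked 4213, 2990 and 7632. The second bab2 summit, at 1177220 (peak 1177002 to 1177437; rank 5372), lay 56 bp from the TSS and ranked 4204, 9359 and 3949. Weak summits were frequent at bab1: it had 44 pooled summits, the most of the 10 genes, of which 6.82% were in the IDR list, against 27.0% of 37 at chinmo. The 39339 bp between both genes held 11 pooled summits and 1 IDR summit.

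The gene ab (FBgn0264442, arm 2L, 11210678 to 11261080, plus strand), which shapes the dendrites of sensory neurons, had 4 IDR summits and none within 500 bp of a TSS. The best, at 11247900 (peak 11247791 to 11247996), lay in an intron 13049 bp downstream of the third start and ranked 2814 in the IDR list and 2182, 4698 and 2081 in replicates 1, 2 and 3. The summit at 11243080 (rank 3971) ranked 3612, 5844 and 3253. These had 43.0% and 33.0% G+C. Those at 11219883 (rank 4528) and 11209155 (rank 4874), with 28.5% and 27.0% G+C, ranked 7618, 3833 and 7095, and 10856, 2900 and 10026. The 4 sites of ab thus fell into 2 that were stronger in replicates 1 and 3 and 2 that were stronger in replicate 2.

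The genes fru and mamo had few summits of any strength, over the longest spans of the 10. Fru (FBgn0004652, arm 3R, 18414273 to 18545586, minus strand), whose zinc-finger proteins direct male courtship, had 3 pooled summits in a territory of 126905 bp, all nearest to the last of its 7 start regions. Its best pooled summit, at 18439495 (peak 18439277 to 18439712), 724 bp upstream of the TSS at 18438771, ranked 7251 and so lay just outside the IDR list. The list of replicate 2 held 5 fru summits, 2 of them among its strongest (ranks 5777 and 6535), and the lists of replicates 1 and 3 held none. Mamo (FBgn0267033, arm X, 13846116 to 13990527, minus strand), which acts in the germ line and in the identity of mushroom body neurons, had 1 pooled summit, at 13890418 (peak 13890200 to 13890635; rank 16435), in an intron 42925 bp downstream of its last start. Replicate 2 held 4 mamo summits, the best at 13891010 with rank 956 and 32.0% G+C, replicate 3 held 1 at rank 15096, and replicate 1 held none. That site of rank 956 had no summit within 100 bp in the pooled list or in either other replicate.

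**Figure D2:**
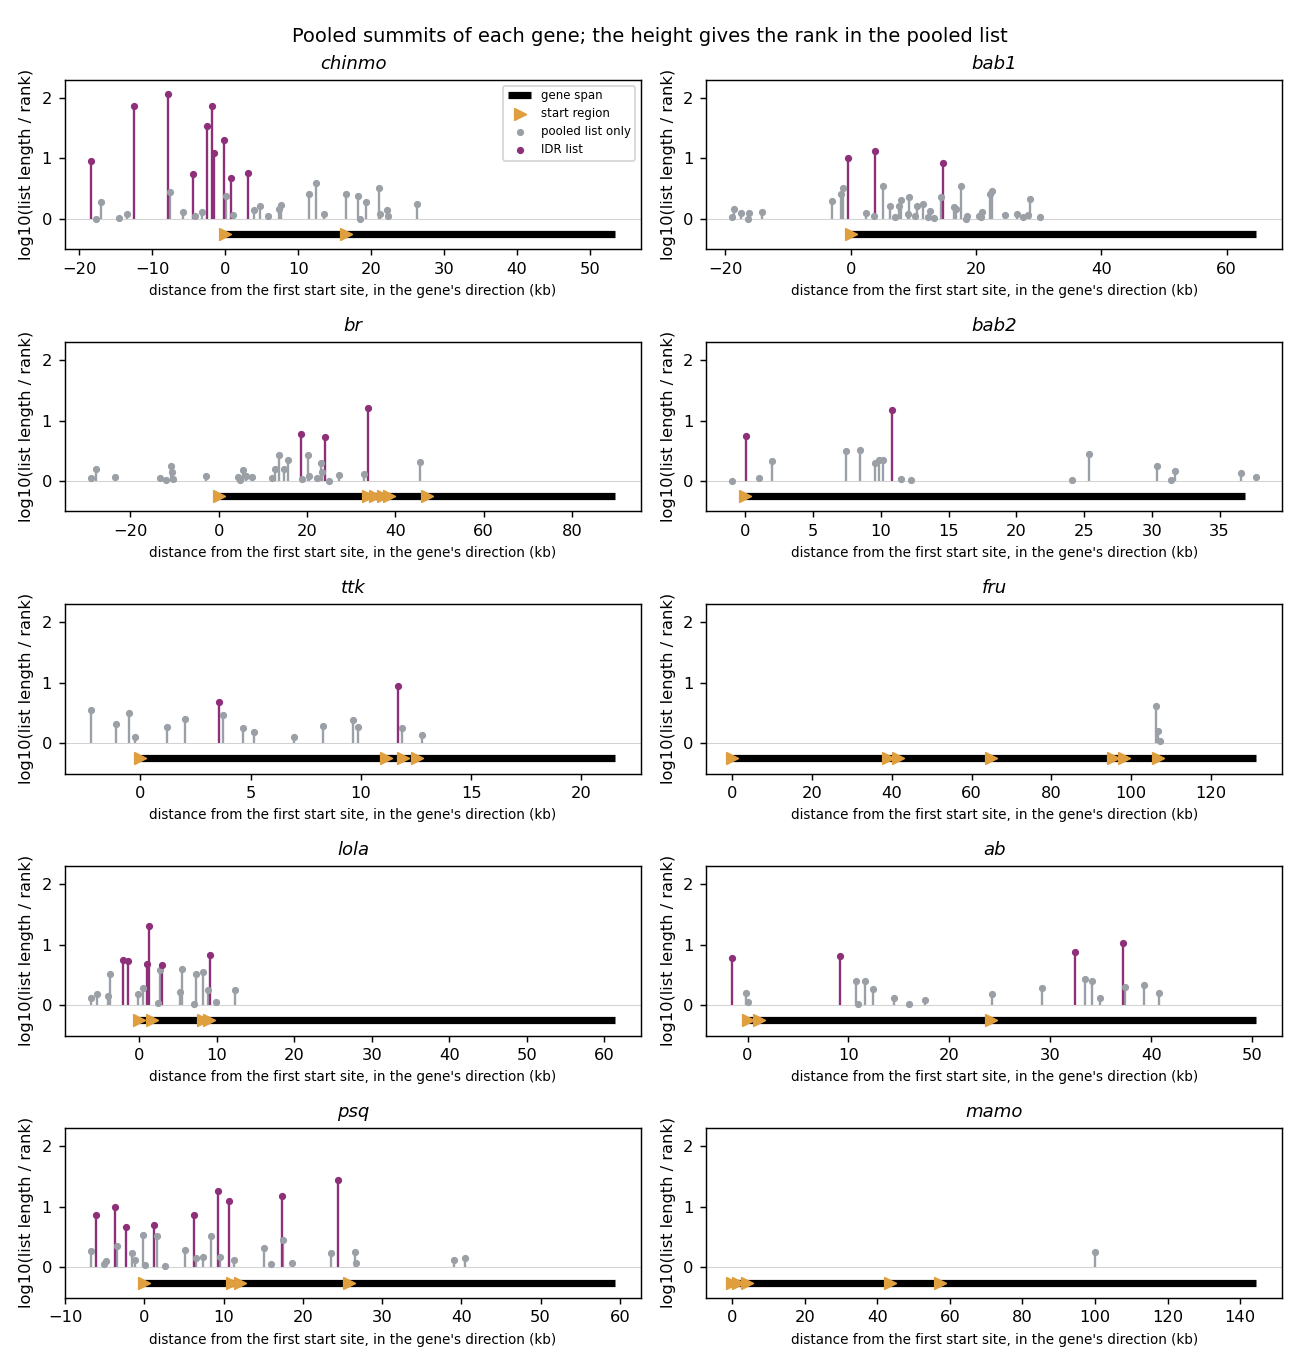
Pooled summits of each gene by distance from its first start site (kb, in the gene's direction), with a height of log10 of the list length over the rank in the pooled list, so that taller is stronger. Purple lines are the 39 summits of the IDR list and grey lines the weaker ones; the black bar is the gene span and arrowheads are start regions. The 8 upstream IDR summits of chinmo lie left of 0, the lola and psq panels show sites on both sides of their first starts, and fru and mamo show no IDR summit.

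Over all 10 genes there were 37 start regions, of which 16 took an IDR summit, 8 more took pooled summits alone and 13 took none. An IDR summit lay within 500 bp of 7 of them, nearest to it. Of the 39 summits, 24 lay upstream of the nearest TSS and 15 downstream. No like counts are given for other genes, so these numbers do not show whether the 10 genes differ from them. Where a gene had several starts, the start with the most transcripts took the most IDR summits at chinmo and psq. It took 1 of 4 at ab, and none at br, lola and fru. At lola it did take summits among the strongest of each replicate, whereas at br and fru it took none in any list.

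The promoter share of the sites was below that of all other genes, and close to that of other genes with long territories. A promoter position, no more than 500 bp from a TSS of any gene, held for 8 of the 39 IDR summits (20.5%, Wilson 95% interval 10.8 to 35.5). A further 18 lay in introns (46.2%, 31.6 to 61.4), 12 in intergenic sequence (30.8%, 18.6 to 46.4) and 1 in an exon outside coding sequence. Of the 12 intergenic summits, 6 were at chinmo, 3 at psq and 1 each at lola, bab1 and ab. None of 39 lay in a coding exon, which allows a share of up to 7.69% (3 counts of 39, the limit used here for a count of 0) and has a Wilson upper limit of 8.97%. At all other genes 50.3% of IDR summits were promoter summits, 32.7% intronic and 14.1% intergenic. Coding exons held 0.456% of them, so a count of 0 in 39 does not set the 10 genes apart. Among the strongest summits of single replicates, the promoter share was 23.3% ± 2.74 at the 10 genes and 50.3% ± 0.693 at all others (SD, n = 3). It was lower at the 10 genes in 3 of 3 replicates (two-sided exact sign-flip permutation test, p = 0.25, the smallest that 3 pairs can give). Against other genes with territories of at least 20579 bp the difference was -2.80 ± 4.84 percentage points (SD), with 26.1% ± 2.17 at those genes, and the 10 genes were lower in 2 of 3 replicates (exact p = 0.5). That difference was smaller than its spread between replicates. The intron share was 51.1% ± 1.14 at the 10 genes, 50.9% ± 1.49 at other genes with long territories and 32.3% ± 0.0931 at all other genes. The intergenic share was 24.0% ± 1.45 at the 10 genes, 20.2% ± 1.19 at other genes with long territories and 14.3% ± 0.279 at all other genes. For introns the 10 genes were higher in 2 of 3 replicates than genes with long territories (exact p = 1), and for intergenic sequence in 3 of 3 (exact p = 0.25). The comparison with long territories was chosen after the values were seen.

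**Figure D3:**
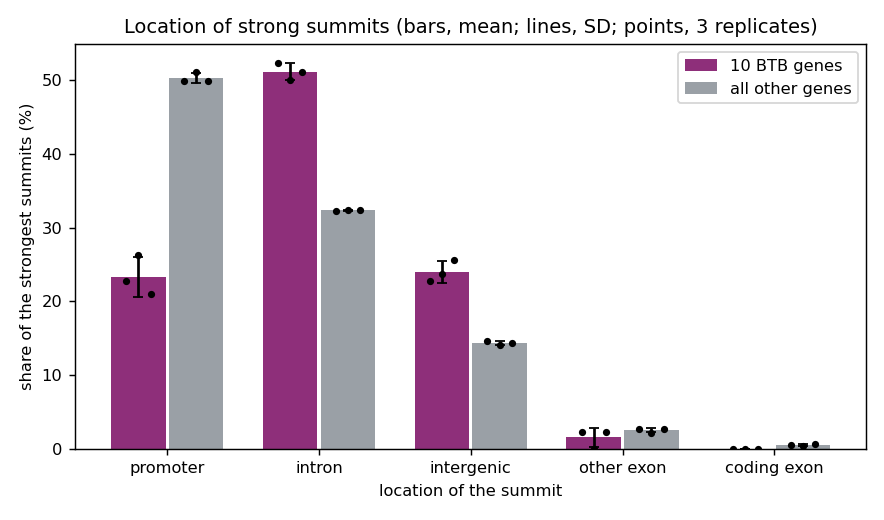
Share of the strongest 7056 summits of a replicate in each location class (%, bars are means and lines SD of 3 replicates, points are replicates), for the 10 BTB genes and for all other genes. The promoter share was 23.3% at the BTB genes and 50.3% at all others, and the intron share was 51.1% and 32.3%.

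The sites recurred in all 3 replicates about as often as those of other genes. Of the 39 IDR summits, 19 (48.7%, Wilson 95% interval 33.9 to 63.8) were matched, by a summit no more than 100 bp away, in the 7056 strongest of all 3 replicates, 10 in 2 replicates, 10 in 1 replicate and none in 0. At other genes 47.3% (46.1 to 48.5) did so in all 3. A match in 2 replicates held for 32.5% of the summits of other genes and in 1 replicate for 19.0%. At the 10 genes each of these shares was 25.6% (14.6 to 41.1). Single replicates held 32, 27 and 28 of the 39 in replicates 1, 2 and 3. In the full lists of 30000 all 3 replicates held 31. The IDR list is the strongest part of the pooled list, so recurrence in the replicates that made it was built in. Intervals cover counting error over summits alone.

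The order of the sites differed between replicate 2 and both others, and the order in replicate 2 varied with base composition. Over BTB sites matched in both replicates compared, the rank correlation (Spearman's rho) was 0.835 between replicates 1 and 3 (33 sites), 0.386 between 1 and 2 (33 sites) and 0.236 between 2 and 3 (32 sites), against 0.825, 0.444 and 0.374 at other genes. Of the 31 sites matched in all 3 replicates, 11 ranked best in replicate 2 (35.5%), 18 ranked worst there (58.1%) and 2 lay between. Of 5767 sites of other genes matched in all 3, 46.3% ranked best in replicate 2 and 42.1% ranked worst there. This difference was not tested. Of the 31 BTB sites, the 15 with less G+C than their median of 42.0% ranked better in replicate 2 than in the geometric mean of the others in 11 cases. The 16 at or above it did so in 1 case. The 4 sites below the median that ranked worse in replicate 2 were those of lola at 10534205 (37.0% G+C) and 10545388 (40%), of psq at 10575200 (40.5%) and of ab at 11243080 (33.0%). Signal strength in replicate 2 correlated with G+C content at rho = -0.561 over 36 BTB sites, against 0.0553 over 36 in replicate 1 and 0.142 over 34 in replicate 3. At other genes these values were -0.454, 0.188 and 0.240, so the negative correlation with G+C content in replicate 2 was not particular to the BTB sites. The sites of 1 gene share a neighbourhood and each list 1 library, and these correlations are descriptions over sites. What part base composition played in the ranks of single sites was not tested.

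**Figure D4:**
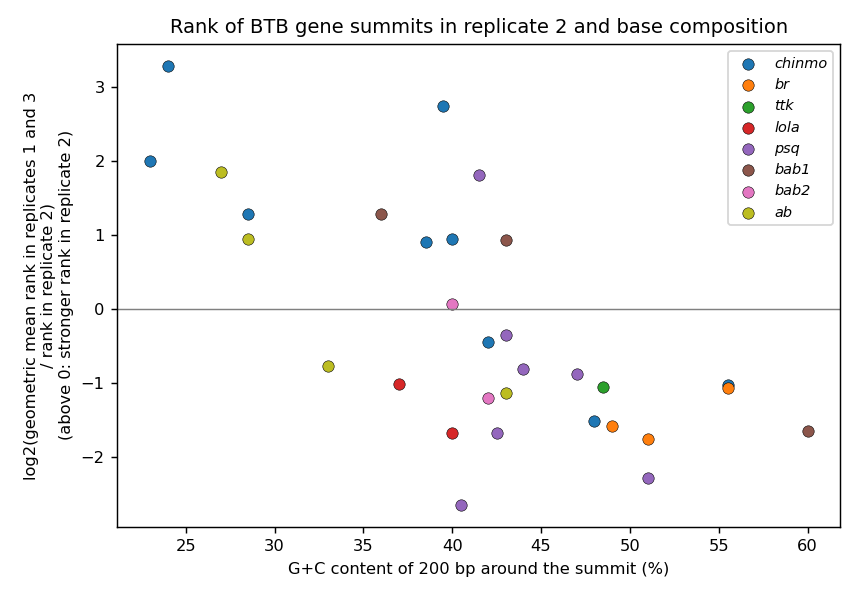
G+C content of the 200 bp around a summit (%) against the log2 ratio of the geometric mean rank in replicates 1 and 3 to the rank in replicate 2, for the 31 BTB sites matched in all 3 replicates, coloured by gene. Points above 0 ranked better in replicate 2; the 15 sites below 42.0% G+C have 11 points above 0 and the 16 others have 1, and br lies below 0 at all 3 of its sites.

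Some strong sites of single replicates had no partner within 100 bp in the full lists of the others. Of the strongest 7056 summits, this held for 3 of 44 at the BTB genes in replicate 1, 9 of 38 in replicate 2 (23.7%) and 3 of 43 in replicate 3. At other genes the shares were 3.86%, 13.5% and 5.00% in the same order. These differences were not tested, and a summit of another replicate can lie just beyond 100 bp, as at ttk and lola. The 9 of replicate 2 lay at fru, psq and ttk (2 each), chinmo, lola and mamo (1 each). Their mean G+C content was 34.1%, against 36.5% over all of the strongest summits of replicate 2.

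Among 7 short words known from factors of the embryo, sought on both strands within 50 bp of a summit, GAGAG was the most frequent at the BTB sites. This word, bound by GAGA factor and by Pipsqueak itself, was at 9 of 39 (23.1%, Wilson 95% interval 12.6 to 38.3) and at 13.8% of all 7056 IDR summits. It was found at chinmo (4 of its sites, the best one included, as marked in the sequence above), psq (3), lola (1) and bab1 (1). The Scalloped word CATTCC was at 6 of 39 (15.4%, 7.25 to 29.7) and at 7.26% of all. The Tramtrack 69 word AGGAT and the Suppressor of Hairless word TGGGAA were at 1 each, both at ab, against 9.35% and 6.24% of all. The Zelda word CAGGTAG, the DREF word TATCGATA and the E-box CAGCTG were at 0 of 39, which allows up to 7.69% each (3 counts of 39; Wilson upper limit 8.97%), and at 0.539%, 1.54% and 4.58% of all. The intervals of GAGAG and CATTCC hold the share of all summits, and a match does not show binding of the factor.

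Other BTB genes, a list of 16 names of which 15 were matched, had summits at 8 (53.3%), against 28.6% of all protein-coding genes. Their territories were shorter than those of the 10 genes, with a median of 4797 bp. Their median was 1 IDR summit, against 3 at the 10 genes, 1 over genes with long territories and 0 over all genes. The best-ranked was Trl, which encodes GAGA factor, with 5 summits and a best rank of 41, ahead of the best chinmo site. Next were CG3726 (rank 276, 1 summit), ken (rank 639, 2 summits), which encodes a repressor in the JAK/STAT pathway, and rib (rank 1336, 3 summits), which acts in the trachea and salivary gland. The 7 with none included Cp190, an insulator protein gene, and lov.

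The protein-coding genes whose best ranks in the 3 replicates were most like those of chinmo (368, 159 and 533) were CG9837 (391, 151 and 566), larp (401, 148 and 577) and scb (402, 154 and 615). Likeness was the Euclidean distance in log10 rank among 5916 genes with a summit in each of the 3 lists, and came to 0.0433, 0.0596 and 0.0743. With 3, 3 and 1 IDR summits, these genes had fewer sites than the 10 of chinmo.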

How the data were processed

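The values are 5 peak lists on the dm6 build: 1 for each of 3 replicates, 1 for the pooled replicates and 1 IDR-thresholded. Each peak's signal value (column 7) is the one the authors deposited, with no stated normalization, and it was used to rank peaks within a list. The deposited text notes list a control alignment among the inputs of the peak files; no control values were analysed here. How reads were aligned and peaks called, and the IDR threshold, is not given in the sources used here, and read depth is unknown. The labels' age field holds a value too large for an embryo, and the collection window was taken from the source label. Replicate and pooled lists have 30000 rows each, and the IDR list is the 7056 strongest pooled rows. Summits are the peak start plus column 10, written 1-based.

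Each summit went to the nearest TSS of a protein-coding gene (Ensembl release 115, BDGP6.54), which does not show the gene it regulates. Location classes were promoter (within 500 bp of a TSS of any gene other than pseudogenes and transposable elements), coding exon, other exon, intron and intergenic, in that order. G+C content is over 200 bp. Sequence is from RefSeq release 6, whose 6 arms reach past the last Ensembl TSS. Python 3.11.15, scipy 1.17.1 and pandas 2.3.3 were used, and assignment, matching and word search were tested on simulated data. The exact test flips the signs of the 3 replicate differences.

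Members, gene lists and words were chosen with earlier results of these data known. Sites given in full are the best IDR summit of each gene, every IDR summit of genes with 3 or fewer, and the best pooled summit of genes with none. The words' counts use 50 bp on each side of a summit. The other BTB genes named are the 4 best-ranked, and the genes most like chinmo the 3 nearest by rank. Sequence windows are those of the 5 best-ranked genes that have one clear of exons; lola and psq are not shown. Other sites were named after their values were seen. One listed name, pfk, was not matched, and Tkr was matched as lov.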

Additional observations from a re-analysis of the deposited data

How the results depend on the processing

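Across 25 results and 123 alternatives, 73 values stayed within the spread between replicates (for counts within 1.5 times, for words within the counting interval), 50 moved, and none reversed. Counts, shares and G+C content cannot change sign, so a reversal was possible only for the differences between the 10 genes and other genes. The number of genes with an IDR summit was 7 to 10 under every alternative run. The 39 summits became 24 by gene body, 19 among the strongest 3528 IDR summits and 230 in the pooled list. Requiring a site in both other replicates gave 19 to 28 summits: 19 without replicate 1, 28 without replicate 2 and 20 without replicate 3, all from shorter lists (3701, 4654 and 3947 summits). The share found in all replicates, 48.7%, was 35.9% at 50 bp, 79.5% against all peaks of a replicate and 48.7% to 71.8% with a replicate left out, the highest without replicate 2. The promoter share, 20.5%, was 7.69% within 100 bp, 12.8% within 250 bp and 28.2% within 1000 bp of a TSS, 26.3% among the strongest 3528, 12.6% in the pooled list and 21.4% to 26.3% with a replicate left out. Against genes with long territories, a comparison chosen after seeing the data, the difference in promoter share from other genes was -2.80 in place of -26.96 percentage points, in intron share 0.218 in place of 18.8, and in intergenic share 3.81 in place of 9.68. Within 25 bp GAGAG was at 10.3% of sites, and AGGAT and TGGGAA at 0%. The window, the list and the number of sites change by construction in these settings, and other causes were not tested. For single genes, 29 of 70 counts moved. No paired analysis was possible because all 3 replicates belong to 1 group, so no replicate block across groups could be fitted; the sign-flip test pairs the 10 genes with other genes within a replicate. Depth could not be used to set precision, since the lists give no read counts.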
